A study of Homo sapiens with 6 samples.

Results

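Heparan sulfate genes were compared between control and estrogen receptor beta (ERβ) knockout cells of KPL4, an established human inflammatory breast cancer line. The set holds 38 genes, listed by function, for the enzymes that build, edit and cut heparan sulfate and for the main proteins that carry it. A gene counted as measured where a probe set of the array carried its symbol alone, and the brightest such probe set, by the mean of the 6 arrays, stood for the gene. By that rule 37 of the 38 were measured, among 33578 genes tested. NDST2 had no such probe set and is not analysed here.

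The series holds 6 Affymetrix arrays, 3 of control KPL4 cells and 3 of KPL4 cells in which ESR2, the gene for ERβ, had been disrupted with CRISPR/Cas9. Both groups grew in the same medium with fetal bovine serum, insulin and hydrocortisone, a glucocorticoid, and received no treatment. The labels number biological replicates within each group. Separate cultures are not mentioned, nor is whether the knockout cells descend from 1 clone, nor how the control cells were handled. The p-values therefore reflect only how these 6 samples vary, perhaps for technical reasons, and a difference between clones cannot be told apart from the knockout.

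Heparan sulfate is a sugar chain attached to a small set of proteins at the cell surface and in the matrix. Its synthesis starts with a short linker on a serine, exostosins then start and extend the chain, and sulfotransferases add sulfate at defined positions. After export, the extracellular sulfatases SULF1 and SULF2 remove 6-O-sulfate, and heparanase cuts the chain. The sulfate pattern sets which growth factors, chemokines and coagulation proteins the chain can bind, and syndecans are prominent carriers on epithelial cells.

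Both sulfatases fell in knockout cells, and theirs were the largest differences among the 37 measured genes. Of the 37, 1 was higher and 4 were lower at an adjusted p under 0.05 (limma, Benjamini-Hochberg adjustment over all 33578 genes), and 32 did not pass. Thus 13.5% of the set passed, where 8.01% of all tested genes did, 4.81% higher and 3.21% lower. The median log2 difference, knockout minus control, was -0.01 over the 37 genes and 0.02 over all tested genes. The 3 knockout arrays did not overlap the 3 control arrays for 13 of the 37 genes, lying above in 5 and below in 8, and 25.3% of all tested genes had groups that did not overlap. A signal below 5.05, the median of tested genes, is called dim here, since no measure of background was given. By that mark 12 of the 37 genes were dim in both groups and 25 bright in both. A bright signal is not shown to be expression: of 9 measured leukocyte markers, 2 were dim in both groups. Of all 33578 tested genes 16217 were dim in both, so the shares that passed are not matched for brightness. The set was also chosen with earlier results of these data known.

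**Figure D1:**
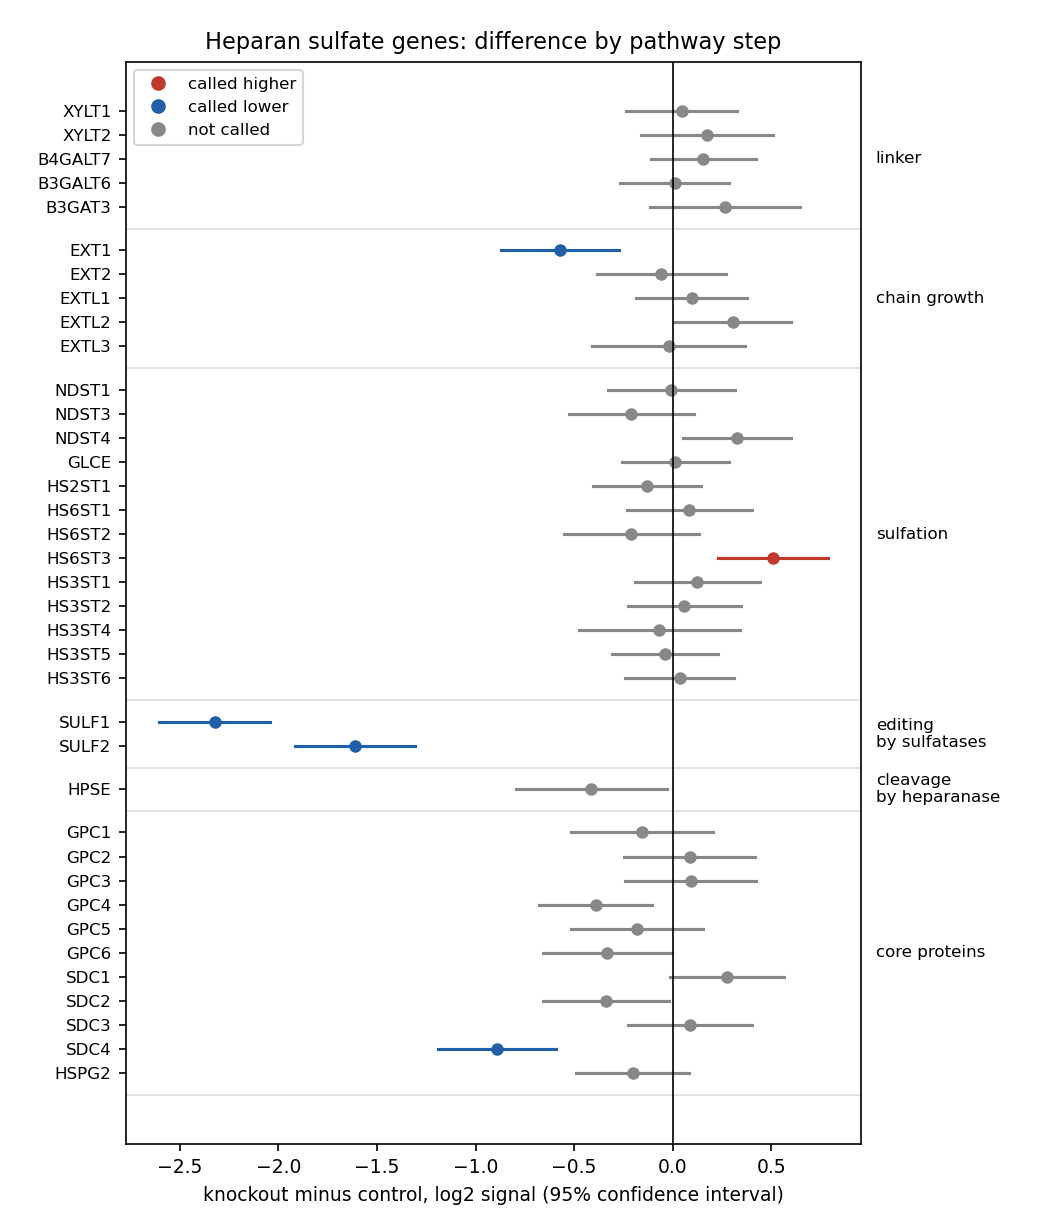
Difference between knockout and control (log2 signal, horizontal axis) for the 37 measured genes, ordered by step; points are differences and bars 95% confidence intervals from limma. SULF1 lies at -2.32, SULF2 at -1.61, SDC4 at -0.89, EXT1 at -0.57 and HS6ST3 at 0.51; the 32 other genes lie between -0.41 and 0.32.

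SULF1, a secreted sulfatase that acts on finished chains, had log2 signals of 13.40, 13.37 and 13.25 on the control arrays and 10.87, 11.11 and 11.08 on the knockout arrays (probe set TC0800007899.hg.1). All knockout arrays lay far below all control arrays. The mean log2 signal was 13.34 ± 0.08 in control and 11.02 ± 0.13 in knockout cells (SD, n = 3 each), a 5.00-fold fall (log2 difference -2.32, SE 0.13, limma adjusted p = 1.7e-06). By size of difference SULF1 ranked 52 among the 33578 genes.

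SULF2, its paralog with the same activity, had log2 signals of 10.19, 10.21 and 10.23 in control and 8.63, 8.38 and 8.80 in knockout cells (probe set TC2000009317.hg.1). The control arrays lay close together and the knockout arrays lay below them without overlap. The fall was 3.06-fold, from 10.21 ± 0.02 to 8.60 ± 0.21 (SD, n = 3 each; log2 difference -1.61, SE 0.14, limma adjusted p = 3.8e-05), rank 188 by size. A second probe set of SULF2 was dim, at 4.02 in control and 4.07 in knockout cells, and differed by 0.05 (95% confidence interval -0.50 to 0.59). With both probe sets averaged, the SULF2 difference was -0.78 (limma adjusted p = 0.0060).

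The fall of SULF1 was set against that of SULF2 within each array. The log2 signal of SULF1 minus that of SULF2 was 3.21, 3.15 and 3.02 on the control arrays and 2.24, 2.73 and 2.28 on the knockout arrays. The groups did not overlap. The difference of -0.71 had an exact two-sided permutation p of 0.1, the smallest that this test can give with 3 arrays against 3. The limma 95% confidence intervals of the falls, -2.60 to -2.04 for SULF1 and -1.92 to -1.31 for SULF2, did not meet. Each interval is for 1 probe set, and whether the 2 probe sets respond alike to a change in RNA was not tested.

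**Figure D2:**
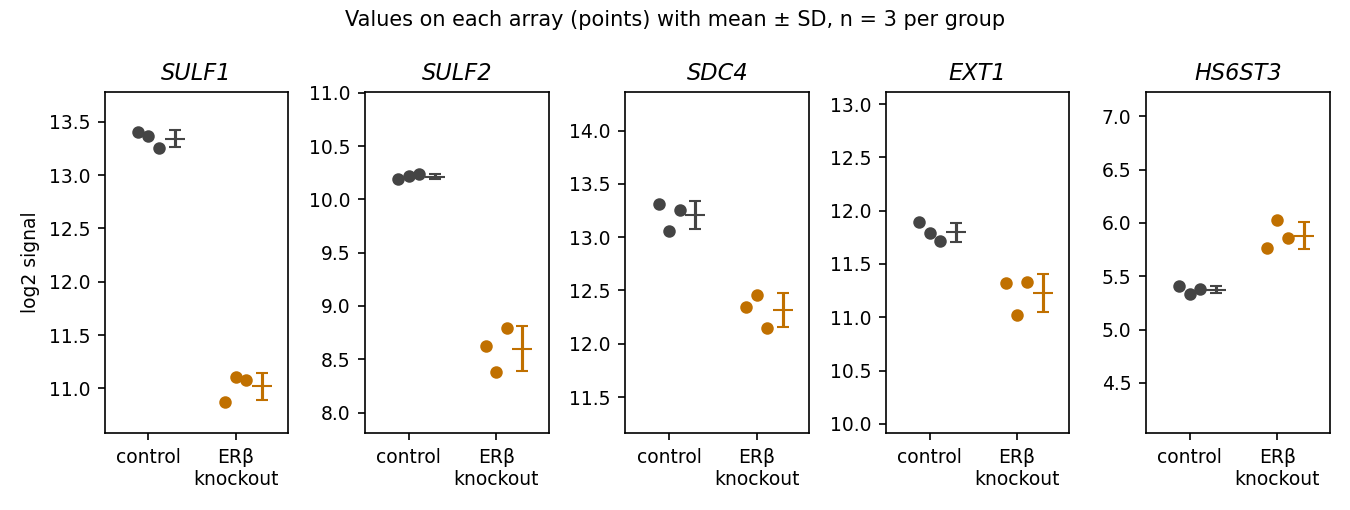
Log2 signal (vertical axis) on each of the 6 arrays for the 5 genes that passed the test; points are arrays and the bars beside them mean ± SD (n = 3). Each panel spans the same range of log2 units and does not start at 0; knockout arrays lie below control arrays for SULF1, SULF2, SDC4 and EXT1 and above them for HS6ST3.

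Among the 13 measured genes that modify the chain during sulfation, 1 rose, 0 fell and 12 did not pass, with a median log2 difference of 0.01. That is 7.69% called, near the 8.01% of all tested genes. The gene that rose was HS6ST3, one of the enzymes that add the 6-O-sulfate which the SULF enzymes remove. Its log2 signals were 5.40, 5.34 and 5.38 in control and 5.77, 6.02 and 5.86 in knockout cells (probe set TC1300007761.hg.1). All knockout arrays were higher, while the control arrays lay close to the mark of 5.05 for dim signals. The mean of 9 leukocyte markers was 5.27 to 5.31 on control arrays, and whether HS6ST3 was above background there was not tested. The rise was 1.42-fold, from 5.37 ± 0.03 to 5.88 ± 0.13 (SD, n = 3 each; log2 difference 0.51, SE 0.13, limma adjusted p = 0.031). The call was lost without any 1 of the 6 arrays (limma adjusted p = 0.051 to 0.14) and when all 134748 probe sets were tested together (0.17), and without moderation of the variances (0.066).

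The other 6-O-sulfotransferases did not pass. HS6ST2 had log2 signals of 9.73, 10.13 and 9.87 in control and 9.82, 9.82 and 9.45 in knockout cells. The groups overlapped, and the difference was -0.21 (95% confidence interval -0.55 to 0.13). HS6ST1, at a lower signal, differed by 0.08 (-0.23 to 0.40), also with overlap.

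Enzymes of the earlier sulfation steps did not pass either. NDST1, which replaces N-acetyl by N-sulfate groups and so opens the chain to later enzymes, differed by -0.01 (-0.33 to 0.31). GLCE, the epimerase that turns glucuronic into iduronic acid, differed by 0.01 (-0.26 to 0.28), with all 6 arrays between 10.32 and 10.50. HS2ST1, which adds 2-O-sulfate, was the brightest gene of the step, with 14.18, 14.37 and 14.16 in control and 14.16, 14.10 and 14.05 in knockout cells. Its groups met at 14.16 without crossing, and the difference of -0.13 (-0.40 to 0.14) did not pass.

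The less bright N-sulfotransferases NDST3 and NDST4 differed by -0.21 (limma adjusted p = 0.49) and 0.32 (0.16), and NDST4 was dim with all knockout arrays above the control arrays. The 3-O-sulfotransferases add a rare sulfate, which in some chains forms part of the site that antithrombin recognises. Their differences lay between -0.07 for HS3ST4 and 0.12 for HS3ST1, with HS3ST2 at 0.06, HS3ST5 at -0.04 and HS3ST6 at 0.03. The groups overlapped for all 5, and HS3ST5 and HS3ST6 were dim.

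At the linker 0 of 5 genes passed, where 8.01% of all tested genes did. All 5 differences were above 0, with a median of 0.15, and 18130 of all 33578 tested genes also differed by more than 0. XYLT1 and XYLT2, the xylosyltransferases that start the linker, differed by 0.04 and 0.18, and B4GALT7 and B3GALT6, which add its galactoses, by 0.15 and 0.01. B3GAT3, which adds the closing glucuronic acid, had log2 signals of 4.49, 3.83 and 4.41 in control and 4.45, 4.53 and 4.54 in knockout cells. Control array 2 was low while the other 5 arrays lay together, and the difference of 0.26 (-0.12 to 0.65) had the lowest adjusted p of the step (limma, 0.46). XYLT1, XYLT2 and B3GAT3 were dim in both groups.

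Among the 5 exostosin genes, grouped here under chain growth, 1 fell and 4 did not pass, where 8.01% of all tested genes passed. EXT1, which forms the chain polymerase together with EXT2, had log2 signals of 11.89, 11.79 and 11.72 in control and 11.32, 11.03 and 11.33 in knockout cells (probe set TC0800011579.hg.1). The knockout arrays lay below the control arrays without overlap. The fall was 1.49-fold, from 11.80 ± 0.09 to 11.23 ± 0.17 (SD, n = 3 each; log2 difference -0.57, SE 0.13, limma adjusted p = 0.025). The call was lost without control replicate 1 (limma adjusted p = 0.092) or 2 (0.054) and without knockout replicate 1 (0.052) or 2 (0.12), as well as without moderation of the variances (0.10) and with all probe sets tested (0.14). The probe sets of EXT1 disagreed: 2 others differed by 0.20 (95% confidence interval -0.33 to 0.72) and 0.09 (-0.23 to 0.42), and the mean of all 3 by -0.09 (limma adjusted p = 0.79).

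EXT2 had log2 signals of 10.75, 10.77 and 10.59 in control and 10.92, 10.55 and 10.46 in knockout cells. The groups overlapped, with a difference of -0.06 (-0.39 to 0.27). EXTL3, which adds the first N-acetylglucosamine and so commits the linker to heparan sulfate, differed by -0.02 (-0.41 to 0.37). EXTL2 differed by 0.30 (limma adjusted p = 0.24), with all knockout arrays above the control arrays, and EXTL1 was dim and differed by 0.10.

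Of the 11 core proteins, 1 fell, 0 rose and 10 did not pass, with a median of -0.18. That is 9.09% called, near the 8.01% of all tested genes. The one that fell was SDC4, which codes for syndecan-4, a transmembrane proteoglycan of focal adhesions whose cytoplasmic tail binds protein kinase C alpha. Its log2 signals were 13.31, 13.06 and 13.25 in control and 12.34, 12.46 and 12.15 in knockout cells (probe set TC2000009218.hg.1). All knockout arrays were lower. The fall was 1.85-fold, from 13.21 ± 0.13 to 12.32 ± 0.16 (SD, n = 3 each; log2 difference -0.89, SE 0.14, limma adjusted p = 0.0021).

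SDC1, the main syndecan of epithelia, had log2 signals of 10.96, 11.09 and 10.79 in control and 11.17, 11.17 and 11.33 in knockout cells. All its knockout arrays lay above its control arrays, and the difference of 0.27 (95% confidence interval -0.01 to 0.56) did not pass (limma adjusted p = 0.28). SDC3 differed by 0.09, and SDC2, dim in both groups, by -0.34 (limma adjusted p = 0.22). The interval of SDC4 ran from -1.19 to -0.59 and did not meet that of SDC1.

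Of the 6 glypicans, which a lipid anchor holds to the membrane, 0 passed. GPC4 came nearest, with log2 signals of 8.98, 9.12 and 8.87 in control and 8.63, 8.48 and 8.69 in knockout cells. The groups did not overlap, and the difference was -0.39 (95% confidence interval -0.68 to -0.11, limma adjusted p = 0.0999). GPC6 differed by -0.33 (limma adjusted p = 0.24), and GPC1, GPC2, GPC3 and GPC5 were dim in both groups and lay between -0.18 and 0.09. HSPG2, which codes for perlecan, a large proteoglycan of basement membranes, differed by -0.20 (limma adjusted p = 0.44), with its knockout arrays just below its control arrays.

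HPSE, heparanase, the endoglycosidase that cuts finished chains, had log2 signals of 7.86, 8.23 and 7.84 in control and 7.27, 7.56 and 7.86 in knockout cells. Knockout array 3 lay among the control arrays, and the difference of -0.41 (95% confidence interval -0.80 to -0.03) did not pass (limma adjusted p = 0.21). HPSE was one of 6 genes, with EXTL2, NDST4, GPC4, GPC6 and SDC2, that had an unadjusted p under 0.05 and did not pass after adjustment.

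Estrogen receptors bind DNA at estrogen response elements and can also act through AP-1 and Sp1 sites, so RefSeq promoter sequences (GRCh38.p14) were searched for these letters on both strands. A window held the 250 bases before a listed start, and 33 of the 38 genes had at least 1, giving 43 windows. SULF1, the gene with the largest difference, EXT1, EXTL3, SDC2 and GPC3 were not searched, so the counts do not cover them. The estrogen response element, GGTCA and TGACC separated by 3 bases, was in 0 of the 43 windows and in 0.0399% of all 35116 windows. Letters that rare would be absent from almost any 43 windows, so the 0 says nothing about these genes. The extended half-site AGGTCA was in 1 of the 43, that of HS6ST2, and in 12.1% of all windows. The AP-1 element TGANTCA was in 2 of the 43, those of NDST1 and NDST4, and in 6.57% of all. The Sp1 box GGGCGG was in 33 of the 43 and in 42.6% of all. Windows of the same gene can overlap, and the counts are not matched for G and C content. An element can contain the half-site, and a window without a match shows only that these letters are not in it.

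Windows are shown for SULF2, SDC4 and HS6ST3 as the genes that passed the test and had a window, each 5′ to 3′ on the strand of its gene, with motif matches in capitals. SULF2 has 4 listed starts, and the window farthest upstream is shown (chr20:47786628-47786877, minus strand, 56.8% G and C). It held 0 matches, while the windows of the other starts held 1, 5 and 0 Sp1 boxes. The window of SDC4 (chr20:45348425-45348674, minus strand, 73.6% G and C) held 8 Sp1 boxes, and that of HS6ST3 (chr13:96089857-96090106, plus strand, 64.4% G and C) held 0 matches.
SULF2: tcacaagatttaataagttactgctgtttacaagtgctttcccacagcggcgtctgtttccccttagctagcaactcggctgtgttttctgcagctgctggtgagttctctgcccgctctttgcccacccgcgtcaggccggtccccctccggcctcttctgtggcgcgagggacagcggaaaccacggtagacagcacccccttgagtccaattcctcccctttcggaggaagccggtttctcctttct
SDC4: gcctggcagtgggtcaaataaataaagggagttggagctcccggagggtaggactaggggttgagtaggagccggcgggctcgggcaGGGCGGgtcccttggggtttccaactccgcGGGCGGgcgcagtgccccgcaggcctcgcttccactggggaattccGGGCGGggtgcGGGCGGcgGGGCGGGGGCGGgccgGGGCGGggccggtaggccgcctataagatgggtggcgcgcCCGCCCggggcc
HS6ST3: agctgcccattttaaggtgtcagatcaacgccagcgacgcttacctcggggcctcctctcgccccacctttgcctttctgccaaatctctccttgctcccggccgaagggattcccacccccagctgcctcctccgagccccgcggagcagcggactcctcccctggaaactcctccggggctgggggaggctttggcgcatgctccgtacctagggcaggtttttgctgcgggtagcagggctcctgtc

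Each gene was then set beside its neighbours, the 12 nearest bright protein-coding genes on each side in RefSeq order. SULF2 and SDC4, both on chromosome 20, had neighbour medians of 0.16 and 0.05, and 0 of the 24 neighbours of either lay below it. SULF1, on chromosome 8, had a neighbour median of 0.29, with 10 of 24 neighbours called higher and 0 below SULF1. These 3 genes thus differed from the genes around them. EXT1, also on chromosome 8, had a neighbour median of -0.19, with 3 of 24 called lower, 1 called higher and 2 below EXT1. MED30 and SAMD12, the nearest on either side, differed by -1.04 and -0.40, and the next, AARD and TNFRSF11B, by 0.09 and -0.52. What a change of the stretch contributed to EXT1 was not tested. Among genes that did not pass, EXTL2, at 0.30, had a neighbour median of 0.37, with 10 of 24 called higher and 0 lower. The dim SDC2, at -0.34, had a neighbour median of 0.48, with 11 of 24 called higher and 0 below SDC2.

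HS6ST3, GPC5 and GPC6 lie on chromosome 13, in a stretch where most neighbours were lower in knockout cells. Of the 24 neighbours of HS6ST3, 20 were called lower and 0 higher, with a median of -1.02, and all 24 lay below HS6ST3. GPC5 and GPC6, at -0.18 and -0.33, had neighbour medians of -1.07 and -1.17, from windows that share genes and hold HS6ST3 as the 1 gene called higher. GPC1, on chromosome 2, had a neighbour median of -0.36, with 8 of 24 called lower, and itself differed by -0.16. GPC1 and GPC5 were dim, and what a change of the whole stretch contributed to any of these values was not tested.

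**Figure D3:**
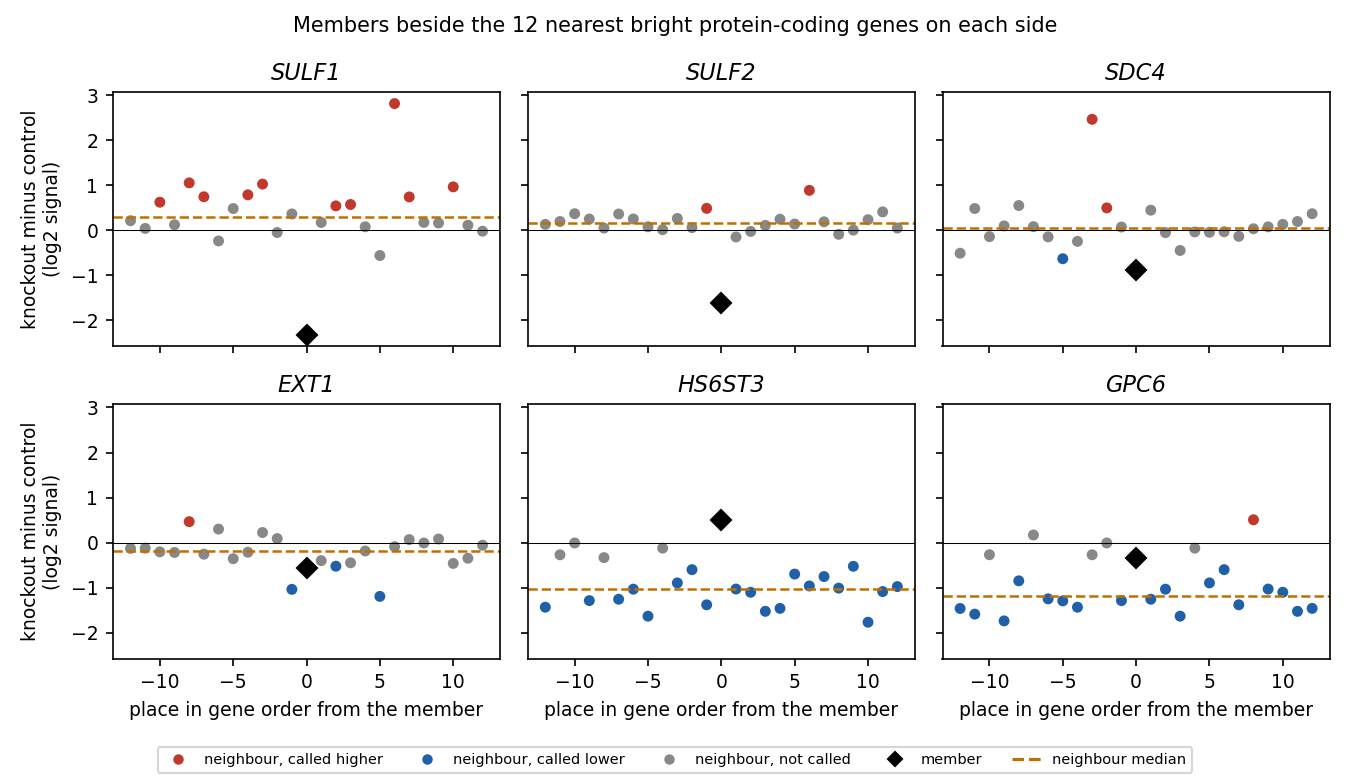
Difference between knockout and control (log2 signal, vertical axis) of 6 genes (diamonds) and their 24 nearest bright protein-coding neighbours (circles, coloured by call) by place in gene order; dashed lines are neighbour medians. SULF1, SULF2 and SDC4 lie below all their neighbours, and HS6ST3 lies above all of its own, whose median is -1.02.

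Among genes that supply the building blocks, a few rose and most did not pass, where 8.01% of all tested genes passed. That share is not matched for brightness, since 0 of the measured supply genes were dim in both groups. Of 7 measured genes of sulfate donor supply, 1 rose (14.3%), 0 fell and 6 did not pass, with a median log2 difference of 0.34. The gene that rose was SLC35B3, a Golgi transporter of the sulfate donor PAPS, by 2.11-fold, from 8.07 ± 0.05 to 9.15 ± 0.21 (SD, n = 3 each; limma adjusted p = 0.00065). Of 11 measured genes of UDP-sugar supply, 3 rose (27.3%), 0 fell and 8 did not pass, with a median of 0.39. UAP1, which makes UDP-N-acetylglucosamine, rose 2.39-fold (limma adjusted p = 0.00024). SLC35D1, a carrier of UDP-glucuronic acid and UDP-N-acetylgalactosamine, rose 2.09-fold (0.0019), and GFPT1, the rate-limiting enzyme of the hexosamine pathway, 1.74-fold (0.0024). These sugars also feed other glycans.

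Chondroitin and dermatan sulfate grow on the same linker as heparan sulfate. Of 15 measured genes of their synthesis, 3 rose, 0 fell and 12 did not pass, with a median of 0.18. That is 20% called, against 8.01% of all tested genes. Dim in both groups were 3 of the 15 but 16217 of all 33578 tested genes, so the 2 shares are not matched for brightness. CSGALNACT1 and CSGALNACT2, which add the first N-acetylgalactosamine and so commit the linker to chondroitin, rose 2.51-fold (limma adjusted p = 0.00011) and 1.87-fold (0.0014). DSE, an epimerase of dermatan sulfate, rose 1.66-fold (0.0072). EXTL3, which acts at the same branch point toward heparan sulfate, had differed by -0.02. Of 8 chondroitin and dermatan sulfate core proteins 0 passed, and 6 were dim in both groups.

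Of the 2 genes that add or remove phosphate at the linker, PXYLP1, the xylose phosphatase, fell 1.45-fold (limma adjusted p = 0.021), a call that needed control replicates 1 (0.051 when left out) and 2 (0.061) and knockout replicates 1 (0.076) and 2 (0.090). Of 9 other proteins that can carry heparan sulfate, 1 rose, 1 fell and 7 did not pass. That is 22.2% called, against 8.01% of all tested genes. CD44, a hyaluronan receptor with heparan sulfate on some splice forms, rose 1.99-fold, a log2 difference of 1.00 (limma adjusted p = 0.0075) that was 0.55 (0.037) with its 2 probe sets averaged. TGFBR3, betaglycan, fell 1.53-fold (0.031), a call that needed control replicates 1 (0.12 when left out) and 3 (0.071) and knockout replicates 1 (0.11) and 3 (0.11).

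Of 6 measured cytoplasmic partners of syndecans, 0 rose, 1 fell and 5 did not pass, with a median of -0.32. Called were 16.7% of these partners, 11.1% of the shedding genes and 12.5% of the lysosomal genes below, against 8.01% of all tested genes. PRKCA, the gene for the kinase that syndecan-4 binds, went from 5.27 ± 0.16 to a dim 4.38 ± 0.21 (log2 signal, SD, n = 3 each; limma adjusted p = 0.0036). With its 2 probe sets averaged the difference was -0.41 and did not pass (0.078). Of 9 genes of core protein shedding, 1 rose and 0 fell: TIMP3, a metalloprotease inhibitor of the matrix, rose 1.57-fold (0.0086). Of 8 genes of lysosomal breakdown, 0 rose and 1 fell: IDS, iduronate sulfatase, fell 1.61-fold (0.012), a call lost without knockout replicate 2 (0.062) or 3 (0.054).

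Of 29 measured ligands known to bind heparin or heparan sulfate, 0 rose, 7 fell and 22 did not pass, with a median of -0.02. The share called was 24.1%, against 8.01% of all tested genes, of which 3.21% were called lower. TFPI, the tissue factor pathway inhibitor, fell 6.01-fold (limma adjusted p = 1.7e-06), NRG1, a ligand of the ERBB family receptors, 4.32-fold (8.7e-06) and CCL20, a chemokine, 4.31-fold (7.0e-06). The other 4 fell by 1.41- to 2.08-fold. Of these, BMP7 and CXCL8, named after their values were seen, depended on single arrays. The call of BMP7 was lost without control replicate 2 (0.067) or 3 (0.068) and without knockout replicate 2 (0.11) or 3 (0.071), and that of CXCL8 without any array but knockout replicate 3 (0.063 to 0.16). TFPI, CCL20 and FN1, another of the 7 that fell, lie on chromosome 2, as does GPC1. List genes were not set beside their neighbours, so what a change of a whole stretch contributed to their values was not tested. None of the 2 further 3-O-sulfotransferases or the 7 FGF receptors and co-receptors passed. Over all 12 lists, 9 genes were higher and 11 lower of 113 measured, 17.7% against 8.01% of all tested genes. Dim in both groups were 32 of the 113 and 16217 of all 33578 tested genes. Neither these shares nor those of the single lists are thus matched for brightness. The lists were also chosen with earlier results of these data known.

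**Figure D4:**
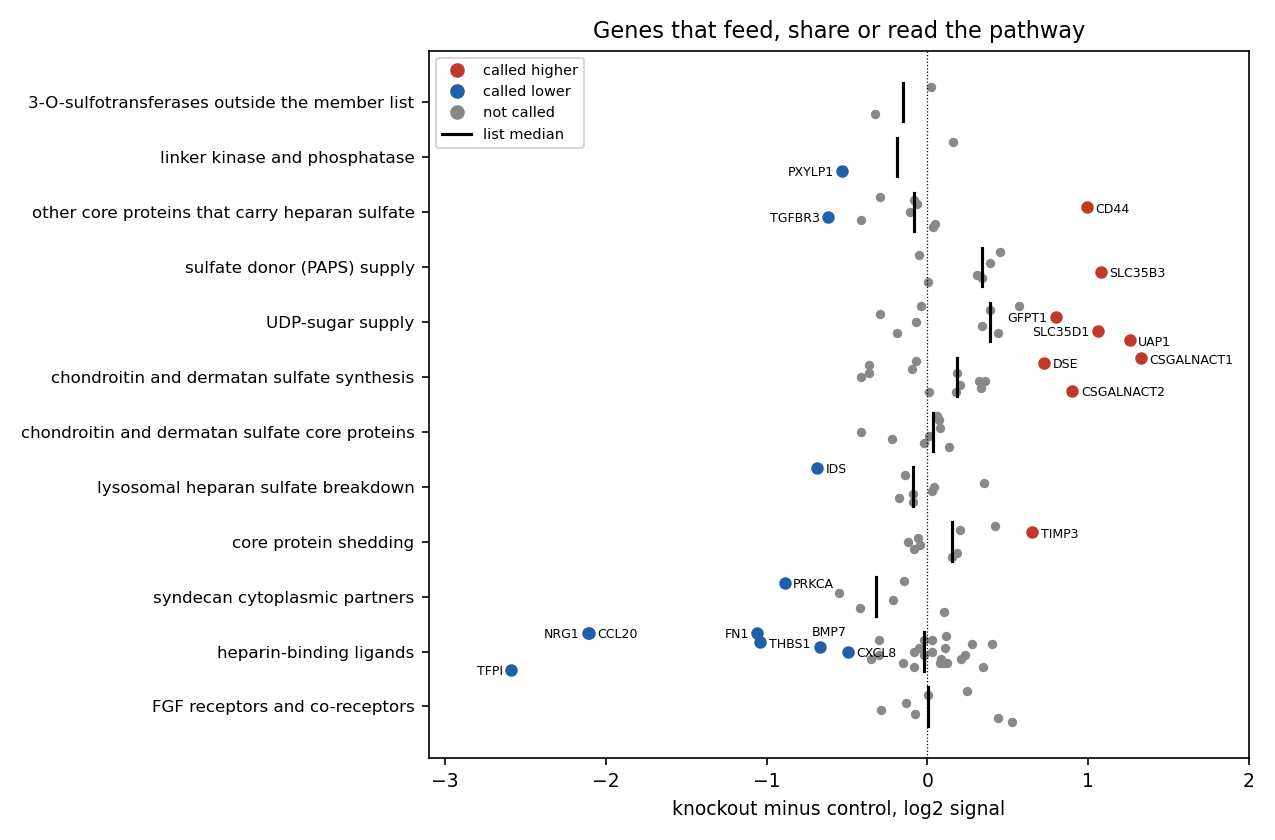
Difference between knockout and control (log2 signal, horizontal axis) for the 113 measured genes of 12 lists; each point is a gene, coloured by its call, and vertical lines are list medians. Calls for sulfate donor supply, UDP-sugar supply and chondroitin synthesis lie above 0, and the 7 calls among heparin-binding ligands lie between -2.59 and -0.49.

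The 6 arrays had medians of 4.08 to 4.11 over all probe sets. ESR2 was dim, at 3.99, 3.69 and 4.16 in control and 3.90, 4.08 and 4.01 in knockout cells (log2 signal; limma adjusted p = 0.90), so its signal gave no check of the knockout label. All 10 epithelial markers were bright, and 2, KRT19 and ESRP1, rose, by log2 differences of 1.25 and 0.74, while 8 did not pass. All knockout arrays lay above the control arrays for 4 markers and below them for 2, KRT8 (-0.24) and KRT18 (-0.27). The mean log2 signal of the 10 was 14.07 to 14.10 on control and 14.29 to 14.37 on knockout arrays. SULF1 is well known from fibroblasts: of 9 measured fibroblast markers 0 passed and 5 were dim, with a mean of 5.13 to 5.36 on control and 5.25 to 5.30 on knockout arrays. Of 10 endothelial markers 0 passed and 6 were dim (4.79 to 4.87 and 4.89 to 4.99). Of 9 measured leukocyte markers, CD68 rose and 2 were dim in both groups (5.27 to 5.31 and 5.34 to 5.39). The part of the epithelial and CD68 differences in the results was not tested. In bulk RNA, fewer cells that express a gene and less of its RNA per cell cannot be told apart.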

How the data were processed

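RNA of 3 control and 3 knockout samples was hybridised to Affymetrix arrays. Per the submitters' processing notes, which name RMA and Transcriptome Analysis Console, the authors deposited normalized log2 signals. Versions and genome build are not given in the sources used here. This method normalizes between arrays, which removes a change shared by all genes. The log2 scale was read from the values (1.92 to 19.9, 0.567% above 16).

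Of 134748 probe sets, 35528 carried 1 symbol in the platform annotation, and 1119 with several were not used. With 1 probe set per gene, 33578 genes were fitted with limma 3.58.1 in R 4.3.3 (lmFit and eBayes, 4 residual and 6.84 prior degrees of freedom, two-sided), with Benjamini-Hochberg adjustment at 0.05 and no filter on low values. The fit was also run on simulated arrays with independent normal noise, which do not mimic shared cultures or clones. RefSeq gave gene order and chromosomes. Members and lists were chosen with earlier results of these data known. Named are all members, ESR2 and up to 3 higher and 3 lower called genes per list. Alternatives were each array left out, a replicate block, other normalization, other probe set rules, a brightness filter and other moderation. The number of arrays limits the precision.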

Additional observations from a re-analysis of the deposited data

How the results depend on the processing

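Over 14 alternatives, SULF1 (-2.39 to -2.25) and SULF2 (-1.71 to -0.78) passed each time. SDC4 lost its call only without moderation of the variances (limma adjusted p = 0.051). Among the 32 members that had not passed, GPC4 alone passed under any alternative, with only genes above the median brightness tested (0.044), and 12 changed sign under at least 1. Members called higher went from 1 to 0 with the replicate block, without moderation, with all probe sets tested and without each single array (0 to 0). Members called lower went from 4 to 2 without moderation. The median of the sulfatases was -1.55 when a gene's probe sets were averaged. Pathway list genes called higher went from 9 to 17 with only genes above the median brightness and to 15 with an intensity trend and robust moderation. Those called lower went from 11 to 7 without moderation, to 6 with all probe sets tested and to between 7 and 9 without 1 array, 7 being without knockout replicate 2. Without moderation the list genes CD44 (0.15), DSE (0.076), SLC35D1 (0.081), TIMP3 (0.051), PRKCA (0.083), IDS (0.098), TGFBR3 (0.17), CXCL8 (0.072) and BMP7 (0.17) and the marker CD68 (0.061) lost their calls, and with all probe sets tested CD44 (0.054), DSE (0.057), TIMP3 (0.067), IDS (0.082), PXYLP1 (0.13), TGFBR3 (0.16), CXCL8 (0.19) and BMP7 (0.13) did. Over all genes, calls went from 1614 higher and 1077 lower to 649 and 437 without moderation and to 682 and 478 with all probe sets tested. With only genes above the median brightness tested, they were 2163 higher and 1355 lower. The cause was not tested beyond the fewer arrays or more tests that some alternatives bring. Deviations of same-numbered arrays were not correlated over the tested genes (-0.0088, -0.014 and -0.030), so no effect shared by same-numbered arrays was seen. Whether same-numbered samples were handled together is not stated, and these values cannot tell. With the replicate block HS6ST3 (0.064), TGFBR3 (0.056) and CXCL8 (0.067) lost their calls. With 3 arrays per group and no detection values, dim signals and bright ones near the mark of 5.05 cannot be placed against background.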
